A study of Mus musculus with 8 samples.

Results

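Complex I, NADH:ubiquinone oxidoreductase, is the entry point for electrons from NADH into the mitochondrial respiratory chain. Its matrix arm binds NADH and passes electrons through iron-sulfur clusters to ubiquinone, while its membrane arm pumps protons across the inner membrane. Most subunits are encoded in the nucleus under symbols that start with Nduf, and the remaining ones, the mt-Nd genes, are encoded in mitochondrial DNA. Brown adipose tissue (BAT) is known for its density of mitochondria, whose proton gradient Ucp1, the uncoupling protein, turns into heat.

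The genes described here are all rows of the deposited gene table with a symbol that starts with Nduf and a protein-coding biotype, which gave 45 of 44422 listed genes. By role they comprise 7 core subunits of the matrix arm, 9 accessory subunits of the matrix arm, 19 accessory subunits of the membrane arm, the acyl carrier protein Ndufab1, Ndufa4 (named for complex I and since assigned to complex IV), its paralog Ndufa4l2, and 7 assembly factors, Ndufaf1 to Ndufaf7. They lie on 16 chromosomes. Levels are in FPKM, the authors' fragment counts scaled for gene length and library size. All 45 reached the minimum of 0.5 FPKM, averaged over the libraries of a comparison, in each comparison. The listed reads per gene and library ranged from 72 to 20880.

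The study deleted the linker histone variant H1.2 in adipocytes and measured mRNA in inguinal white adipose tissue (iWAT) and BAT. All groups were male mice of 10 weeks with the H1.2 flox/flox alleles on a C57BL/6 background, fed normal chow and housed at 22 °C. H1.2AKO mice also carried adiponectin-Cre, which deletes in adipocytes and leaves H1.2 in the other cells of the fat pad, and WT mice were littermates without Cre. Each tissue and genotype had 2 libraries, 8 in all. A library pooled RNA of several mice (the sources differ on how many, and do not say whether both tissues came from the same mice), so p-values measure the spread between pools.

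Listed reads ranged from 16118634 to 17480325 per library. Hist1h1c, which encodes H1.2, stood at 23.7 and 24.2 FPKM in WT iWAT, 2.26 and 1.73 in H1.2AKO iWAT, 36.8 and 43.3 in WT BAT, and 0.177 and 1.97 in H1.2AKO BAT, so every H1.2AKO library lay below the WT libraries of its tissue, although neither difference passed the adjusted threshold by limma. Ucp1 lay between 2490 and 2856 FPKM in BAT and between 0.547 and 3.41 in iWAT. A list of 30 skeletal muscle genes summed to 0.0320% to 1.74% of a library's FPKM, and 2 libraries stood apart with little of this RNA: WT iWAT replicate 1 (0.0707%) and H1.2AKO BAT replicate 1 (0.0320%). Results between genotypes are therefore also given without these 2 libraries. In bulk tissue, fewer cells of a type and less RNA per cell cannot be told apart.

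The 45 genes spanned a wide range of levels and kept nearly the same order in both tissues. Ndufa4 was the highest, at 501 and 402 FPKM in WT iWAT, 416 and 474 in H1.2AKO iWAT, 2014 and 1643 in WT BAT, and 1966 and 1930 in H1.2AKO BAT. Ndufb2, an accessory subunit of the membrane arm, was the lowest, at 1.68 and 1.67 FPKM in WT iWAT, 1.71 and 1.99 in H1.2AKO iWAT, 4.36 and 4.14 in WT BAT, and 4.90 and 4.58 in H1.2AKO BAT. For both genes every BAT library lay above every iWAT library. The assembly factors, which help build the complex and are not part of it, were lower than most subunits, with mean levels of 4.81 to 13.8 FPKM in iWAT and 14.5 to 41.7 in BAT. The 7 core subunits had a median level of 64.3 FPKM in iWAT and 272 in BAT. As a description over the 45 genes, which share libraries, Spearman's rho between their mean levels in iWAT and BAT was 0.970.

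**Figure D1:**
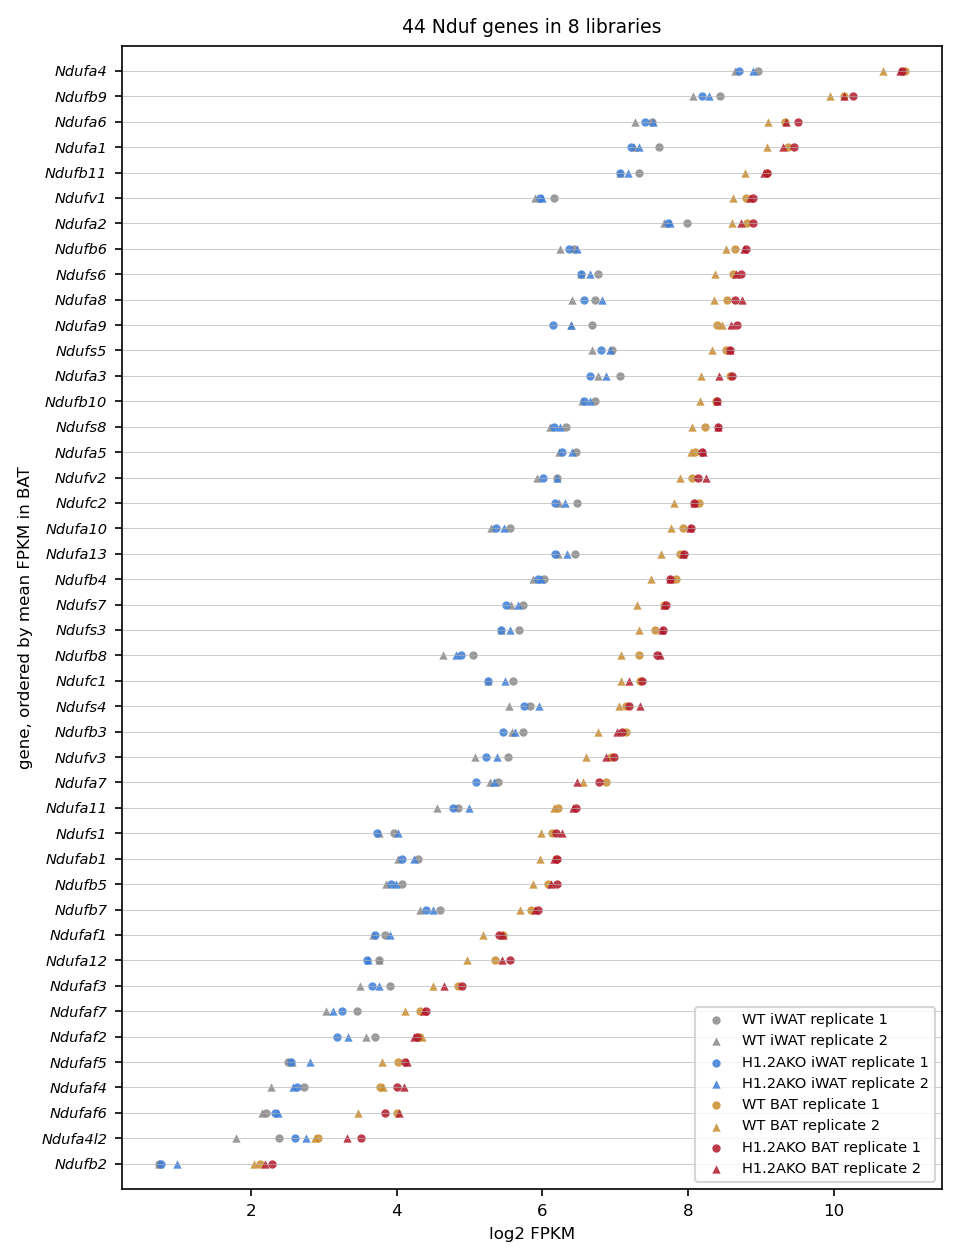
FPKM on a log2 axis of 44 of the 45 Nduf genes (rows, ordered by the mean in BAT) in the 8 libraries, with color for tissue and genotype and shape for the replicate. The 4 BAT libraries lie to the right of the 4 iWAT libraries in every row, with Ndufa4 at the top and Ndufb2 at the bottom.

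Levels between genes depend on the gene length used by the authors. The listed length was 0.903 to 12.4 times that of the principal mRNA in GENCODE vM21, and for 9 genes it was more than 3 times as long. Ndufb2 was listed with 5628 bases against 455 for its principal mRNA. Per kilobase of principal mRNA, Ndufb2 ranked 36 of 45 in BAT in place of 45, and Ndufb8, another membrane arm subunit, ranked 4 in place of 25. Ndufa4 was first on both scales. The length cancels in the ratio of a gene's FPKM between libraries. It does not cancel fully in the fitted fold changes below, because a constant is added to each FPKM before the log is taken. A long listed length can therefore understate the fold change of a low gene such as Ndufb2.

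The first question was how far the complex I genes differ between BAT and iWAT. All 45 were higher in BAT, in WT and in H1.2AKO mice, by limma on log2(FPKM + 0.5) with an adjusted p under 0.05. Among all genes tested, 25.3% of 14094 were called higher in WT and 26.2% of 14079 in H1.2AKO. The median log2 fold change of the 45 genes was 1.71 in WT (range 0.66 to 2.67), against -0.01 over all genes tested. In H1.2AKO the median was 1.86 (range 0.69 to 2.88), against -0.02 over all genes tested. All 4 BAT libraries exceeded all 4 iWAT libraries for 45 of 45 genes, and for 29.2% of the 14108 genes that averaged 0.5 FPKM or more over the 8 libraries.

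Ndufv1, the core subunit that binds NADH and its flavin, had the largest fold change of the 45 genes in both genotypes. It stood at 71.5 and 59.6 FPKM in WT iWAT, 62.5 and 63.6 in H1.2AKO iWAT, 443 and 392 in WT BAT, and 477 and 460 in H1.2AKO BAT. The groups of the 2 tissues were far apart, with a 6.34-fold higher level in BAT of WT mice (log2 2.67, SE 0.11, adjusted p = 1.86e-05, limma) and a 7.38-fold higher level in H1.2AKO (log2 2.88, SE 0.11, adjusted p = 1.63e-05).

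Other core subunits carry iron-sulfur clusters or stabilize the peripheral arm, and their tissue differences were alike in size. Ndufs1, which holds several of the clusters, was at 15.6 and 13.6 FPKM in WT iWAT, 13.3 and 16.3 in H1.2AKO iWAT, 70.3 and 63.1 in WT BAT, and 73.2 and 77.1 in H1.2AKO BAT. Ndufv2, the partner of Ndufv1, was at 73.8 and 60.7 in WT iWAT, 64.4 and 73.6 in H1.2AKO iWAT, 266 and 238 in WT BAT, and 282 and 303 in H1.2AKO BAT. Both genes were separated by tissue in every library, with log2 fold changes in WT of 2.16 for Ndufs1 and 1.90 for Ndufv2. Ndufs3 was at 51.5 and 43.4 FPKM in WT iWAT, 43.1 and 47.0 in H1.2AKO iWAT, 187 and 161 in WT BAT, and 203 and 200 in H1.2AKO BAT. Ndufs7, which carries the last cluster before ubiquinone, was at 53.3 and 47.7 in WT iWAT, 45.3 and 50.6 in H1.2AKO iWAT, 203 and 158 in WT BAT, and 208 and 203 in H1.2AKO BAT. Ndufs8, with a pair of clusters, was at 80.3 and 69.0 in WT iWAT, 71.4 and 76.1 in H1.2AKO iWAT, 301 and 265 in WT BAT, and 340 and 341 in H1.2AKO BAT. These 3 genes rose by log2 1.82 to 1.92 in WT and by log2 2.09 to 2.20 in H1.2AKO. In all, 7 of 7 core subunits were called higher in each genotype.

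Accessory subunits surround the core without taking part in electron transfer. Ndufb6, in the membrane arm, was at 86.4 and 76.0 FPKM in WT iWAT, 82.2 and 88.9 in H1.2AKO iWAT, 402 and 368 in WT BAT, and 445 and 435 in H1.2AKO BAT. Ndufa10, also in the membrane arm, was at 47.1 and 39.2 in WT iWAT, 41.1 and 44.4 in H1.2AKO iWAT, 244 and 218 in WT BAT, and 264 and 261 in H1.2AKO BAT. Ndufb6 was 4.72-fold and Ndufa10 5.31-fold higher in BAT of WT mice (log2 2.24, SE 0.10, and log2 2.41, SE 0.11, adjusted p = 2.23e-05 and 2.51e-05, limma). With Ndufv1 they had the 3 smallest p-values of the 45 genes in both genotypes. The median log2 fold change in WT was 1.71 over the 19 membrane arm accessory subunits and 1.46 over the 9 of the matrix arm, beside 1.92 over the core. The acyl carrier protein Ndufab1, which also serves mitochondrial fatty acid synthesis, was 3.73-fold higher in BAT of WT mice. Its level is uncertain, as given under the other observations.

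**Figure D2:**
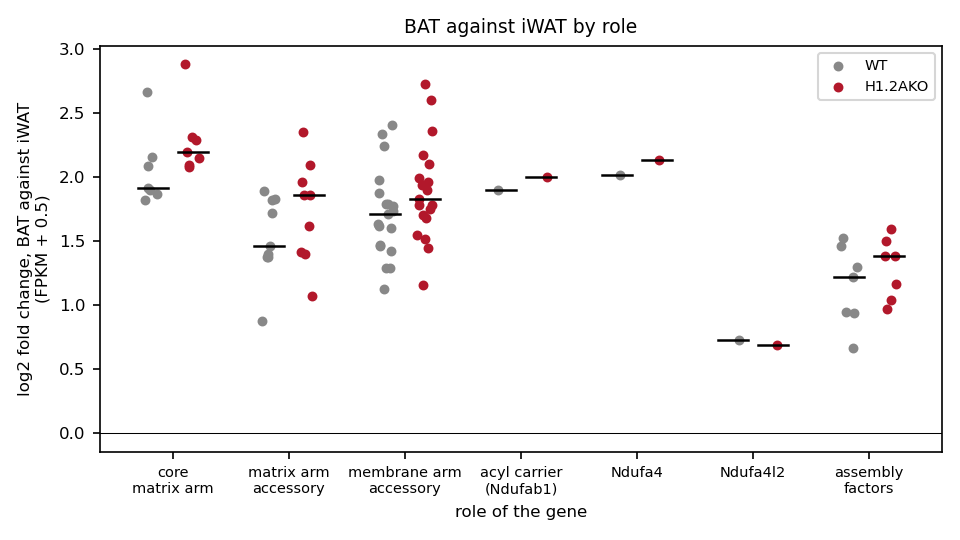
Log2 fold change of BAT against iWAT for each Nduf gene (points) by role, in WT (gray) and H1.2AKO (red), with black lines at the medians. All points lie above 0, the core subunits around 1.92 in WT and 2.20 in H1.2AKO and the assembly factors around 1.22 and 1.38.

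The smallest tissue differences belonged to assembly factors and to 2 genes with other features. Ndufaf2, an assembly factor of the late matrix arm, was at 13.01 and 12.0 FPKM in WT iWAT, 9.09 and 10.0 in H1.2AKO iWAT, 19.9 and 20.3 in WT BAT, and 19.5 and 18.9 in H1.2AKO BAT. Its log2 fold change was 0.66 in WT and 0.97 in H1.2AKO (SE 0.08 for each). Ndufa4l2, known elsewhere as a hypoxia-induced gene, was at 5.25 and 3.49 FPKM in WT iWAT, 6.11 and 6.74 in H1.2AKO iWAT, 7.55 and 7.35 in WT BAT, and 11.4 and 9.95 in H1.2AKO BAT. Its log2 fold change was 0.73 in WT and 0.69 in H1.2AKO (SE 0.18, adjusted p = 0.0126 and 0.0157, limma). Ndufa2, a matrix arm subunit with a thioredoxin-like fold, had a log2 fold change of 0.87 in WT and 1.07 in H1.2AKO. After quantile normalization it was not called in either genotype (log2 0.25 and 0.36, adjusted p = 0.077 and 0.0686, limma). The 7 assembly factors had a median log2 fold change of 1.22 in WT and 1.38 in H1.2AKO, and 7 of 7 were called higher in each genotype.

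The size of the tissue difference depended on the scale. The total by which the authors divided each library was 1.23 to 1.33 times the listed reads in iWAT and 0.873 to 0.955 times in BAT. On reads recovered from the table and scaled to their own total (limma-voom), the median over the 45 genes was 1.26 in WT and 1.33 in H1.2AKO, while that of all genes moved to -0.47 and -0.56. On that scale 43 genes remained called higher in WT, where 12.2% of all genes were, and 44 in H1.2AKO, where 11% were. Ndufaf2 (adjusted p = 0.201) and Ndufa4l2 (0.222) were not called in WT by limma-voom, nor was Ndufa4l2 (0.413) in H1.2AKO. Ndufa4l2 also lost its call in WT without WT BAT replicate 1 (adjusted p = 0.058, limma). In H1.2AKO it lost the call after rescaling without mitochondrially encoded genes (0.0813), and when BAT replicate 1 (0.0798), iWAT replicate 1 (0.0866) or iWAT replicate 2 (0.0512) of H1.2AKO was left out. Neither scale gave a member a lower level in BAT.

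Other genes of the respiratory chain moved in the same direction between the tissues. The 7 mt-Nd genes, the mitochondrial part of complex I, were all called higher in BAT of WT mice, with a median log2 fold change of 1.89, and summed to 4.19 to 5.23 times the FPKM of the 45 nuclear genes in every library. Complex II had 4 of 4 genes called higher (median 2.23) and complex III 9 of 9 (median 2.01). Complex IV had 14 of 16 called higher (median 2.02) and 1 lower, Cox4i2, and complex V had 12 of 15 called higher (median 1.61). Uqcrc1, a core subunit of complex III, and Cox7a1, the heart and brown fat form of a complex IV subunit, had the smallest p among these lists, at log2 2.80 and 5.83 in WT. The 9 listed assembly factors of complex I that are not named Nduf were all called higher, with a median of 1.16, close to that of Ndufaf1 to Ndufaf7. Mitochondrial ribosomal protein genes had a median of 0.81 and cytosolic ones -0.72. Of 10 regulators of nuclear respiratory genes, 5 were called higher and 1 lower in WT, among them the coactivator Ppargc1a (log2 3.23) and the nuclear receptor Esrra (log2 1.96). Marker lists of other cells also differed between the tissues. In WT 11 of 11 brown adipocyte genes were called higher in BAT (median 3.94), and 4 of 4 B cell (-6.44), 4 of 4 T cell (-3.39) and 5 of 5 macrophage genes (-2.52) were called lower. Of 8 adipocyte genes 1 was called higher and 3 lower in WT, and of 4 endothelial genes 2 were called higher. The 29 skeletal muscle genes tested had a median of 1.77 in WT, with all above 0 and 5 called higher. In H1.2AKO their median was -2.15, with 24 below 0 and none called. The part of these lists in the tissue difference of the 45 genes was not tested. The 45 genes made up 1.00% to 1.12% of all FPKM in iWAT libraries and 2.29% to 2.59% in BAT libraries.

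Promoter windows were searched because the genes moved together between tissues and some regulators of respiratory genes have known sites. RefSeq promoter sequences (GRCm38.p6, 250 bases before to 50 after the start site) were matched for 39 of the 45 genes. Both strands were searched for NRF1 (GCGC, any base, then TGCGC), estrogen-related receptor (TNAAGGTCA), GABPA/ETS (CCGGAAGT) and YY1 (AAGATGGCG). The NRF1 letters were found in 9 of 39 genes (23.1%), in 5.19% of the 27025 genes of the promoter table, and in 11.4% of 9158 protein-coding genes that averaged 0.5 FPKM or more in these libraries. The YY1 letters were found in 5 of 39 (12.8%), in 1.64% of all genes and in 3.56% of the expressed ones. The estrogen-related receptor letters were found in 1 of the 39 genes, Ndufb4 (2.56%), in 1.43% of all genes and in 0.863% of the expressed ones. The GABPA/ETS letters were found in 1 of 39, Ndufs3 (2.56%), in 4.31% of all genes and in 8.81% of the expressed ones. A match is a description of the letters and no measured site.

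The windows around the NRF1 matches that lie before the start site are shown because they hold this shared sequence. Capitals mark matches, all sequences read 5′ to 3′ along the gene's strand, and the shown stretch of Ndufb4, which has a further NRF1 match at -191 outside it, also holds the estrogen-related receptor match TGAAGGTCA between its pair of NRF1 matches. Positions count from the start site, with negative numbers before it.
Ndufa11, chr17:56717677-56717736, plus strand, match at -60: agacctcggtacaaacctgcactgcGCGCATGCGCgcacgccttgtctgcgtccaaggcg
Ndufaf4, chr4:24897945-24898004, plus strand, match at -113: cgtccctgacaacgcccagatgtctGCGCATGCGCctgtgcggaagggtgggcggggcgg
Ndufa8, chr2:36049339-36049398, minus strand, match at -30: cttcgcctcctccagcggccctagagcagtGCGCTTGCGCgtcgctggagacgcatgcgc
Ndufs5, chr4:123718250-123718309, minus strand, match at -98: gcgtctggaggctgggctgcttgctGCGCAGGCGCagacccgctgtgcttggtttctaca
Ndufa5, chr6:24527691-24527750, minus strand, match at -26: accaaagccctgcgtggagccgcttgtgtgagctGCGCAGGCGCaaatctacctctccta
Ndufs6, chr13:73328483-73328542, minus strand, match at -16: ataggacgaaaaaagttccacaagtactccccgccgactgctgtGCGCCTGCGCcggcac
Ndufb4, chr16:37654369-37654468, minus strand, matches at -79 and -22: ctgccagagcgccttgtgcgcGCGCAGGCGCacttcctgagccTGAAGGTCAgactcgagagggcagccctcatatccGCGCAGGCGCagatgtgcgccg

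The YY1 matches lay in a narrow stretch after the start site, from position 22 to 35. They are shown because all 5 have the same orientation there. The searched letters have no free base, so they are the same by construction, and they hold an ATG. Whether this ATG is the start codon of the protein, which would set the orientation, was not tested.
Ndufc1, chr3:51408915-51408943, minus strand: cctgcggaacAAGATGGCGccgtccgtag
Ndufa9, chr6:126849097-126849125, minus strand: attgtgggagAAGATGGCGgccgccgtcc
Ndufs7, chr10:80249463-80249491, plus strand: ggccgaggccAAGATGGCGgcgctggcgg
Ndufs6, chr13:73328433-73328459, minus strand: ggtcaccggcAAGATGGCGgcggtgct
Ndufs4, chr13:114388045-114388069, minus strand: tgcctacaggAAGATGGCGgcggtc

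The medians of the tissue difference were close with and without these matches. The 9 genes with the NRF1 letters had a median log2 fold change of BAT against iWAT in WT of 1.71 (range 1.22 to 1.88), and the 30 matched genes without them 1.68 (range 0.66 to 2.67). The 5 genes with the YY1 letters had a median of 1.82 (range 1.40 to 1.89) and those without them 1.63. These values are given with no test.

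**Figure D3:**
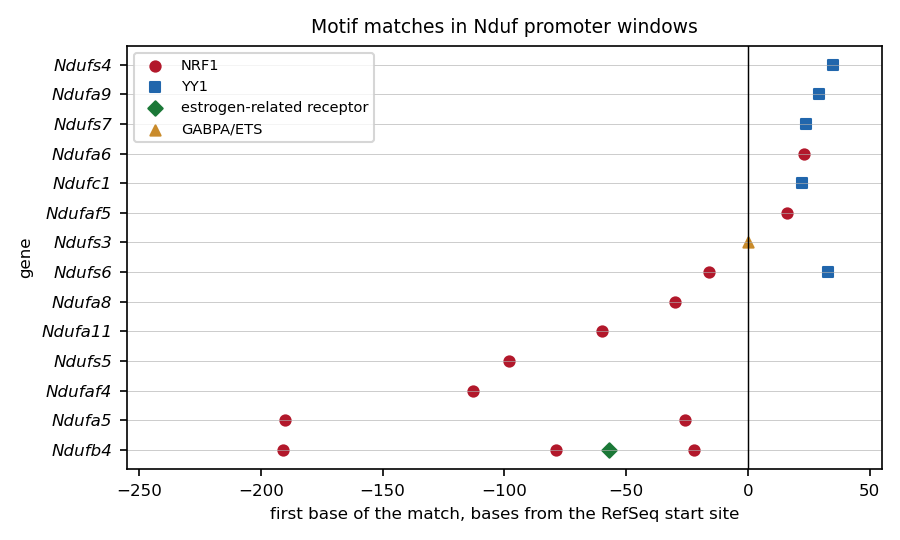
Position of each motif match (first base, in bases from the RefSeq start site, vertical line at 0) in the promoter windows of the 14 Nduf genes with any match. NRF1 matches (red) lie on both sides of the start site, and the 5 YY1 matches (blue) lie between 22 and 35 bases after it. Ndufa5 has overlapping windows from different start sites, so the same match is drawn at -190 and at -26.

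Before the genotypes were compared, the replicates of each group were, because the 45 genes shifted together within groups. Replicate 1 was higher than replicate 2 for 44 of 45 genes in WT iWAT (median difference 0.26 on the log2 scale) and for 42 of 45 in WT BAT (0.21). In H1.2AKO iWAT replicate 1 was higher for 3 of 45 genes (median -0.13), and in H1.2AKO BAT for 32 of 45 (0.03). Over all expressed genes these medians were 0.01, 0.01, -0.01 and -0.01 in the same order. Genes of complexes II to V shifted likewise, by 0.28 in WT iWAT, 0.23 in WT BAT, -0.09 in H1.2AKO iWAT and 0.07 in H1.2AKO BAT. A difference between genotypes that is shared by the 45 genes was set against the pooled SD between replicates of their median log2 level, 0.143.

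**Figure D4:**
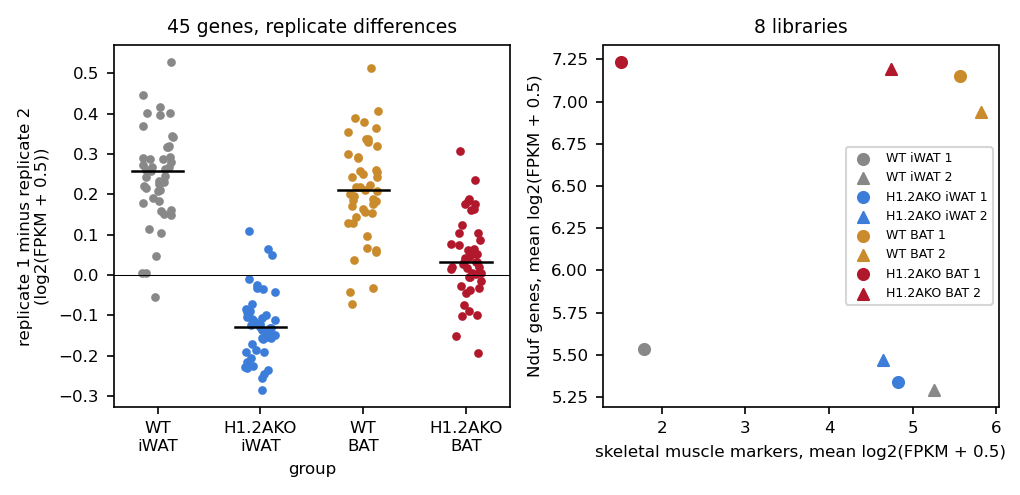
Left, the log2 difference of replicate 1 minus replicate 2 for each of the 45 Nduf genes in the 4 groups, with black lines at the medians (0.26, -0.13, 0.21 and 0.03). Right, the mean level of the 45 genes against the mean level of 30 skeletal muscle genes in each library, both as log2(FPKM + 0.5). WT iWAT replicate 1 and H1.2AKO BAT replicate 1 lie at low muscle levels and have the highest Nduf level of their tissue.

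In BAT, the question was whether deletion of H1.2 in adipocytes changed the complex I genes. None of the 45 was called, as 0 of 13190 genes (0%) were by limma, which also left 1651 genes at an unadjusted p under 0.05. By limma-voom on the recovered reads 31 genes (0.235%) were called, none of them among the 45. Of the 45 genes, 43 had a fold change above 0, against 52.5% of all genes tested, with a median log2 fold change of 0.17 beside 0.01. The 2 H1.2AKO libraries lay above both WT libraries for 29 of the 45 genes, against 22.4% of all genes, and below both for 1, Ndufaf2, against 18.9%. The median difference was close to the SD of 0.143 between replicates.

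The 4 genes with the smallest p in BAT were the only ones of the 45 with an unadjusted p under 0.05 there, all higher, beside 6.22% of all genes. Ndufa4l2 was at 7.55 and 7.35 FPKM in WT against 11.4 and 9.95 in H1.2AKO. The groups did not overlap, at log2 0.49 (SE 0.18, adjusted p = 0.353, limma). Ndufa12, an accessory subunit of the matrix arm, was at 40.9 and 31.3 FPKM in WT against 47.0 and 43.7 in H1.2AKO (log2 0.34, SE 0.13, adjusted p = 0.362). Ndufb8, whose protein is widely used as a readout of assembled complex I, was at 161 and 136 in WT against 191 and 196 in H1.2AKO (log2 0.39, SE 0.15, adjusted p = 0.362). Ndufs8 had the FPKM given above (log2 0.27, SE 0.11, adjusted p = 0.385). Without WT replicate 2 the log2 fold change was 0.15 for Ndufa12 and 0.17 for Ndufs8, and without WT replicate 1 it was 0.52 for Ndufa12. Both H1.2AKO libraries lay above both WT libraries for 22.4% of all genes tested. By role, they did so for 7 of 7 core subunits and 3 of 7 assembly factors. Among accessory subunits the counts were 6 of 9 in the matrix arm and 12 of 19 in the membrane arm. Genes of a role share the libraries and their common shift, so these counts are not independent results.

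Several other measures were set beside this shift in BAT. The mean level of the 45 genes was 7.15 and 6.94 in WT against 7.23 and 7.19 in H1.2AKO on the log2(FPKM + 0.5) scale, so WT replicate 2 was the low library. Without it the median was 0.08, and without WT replicate 1 it was 0.27. The mean level of the 30 skeletal muscle genes was 5.56 and 5.82 in WT against 1.51 and 4.74 in H1.2AKO, and 1 to 2 of them were at 0 in all BAT libraries but WT replicate 2, which had none at 0. With the muscle level as a covariate the median was 0.05. The covariate has a common slope for both tissues, so this value also rests on the iWAT libraries. Without the 2 libraries low in muscle RNA it was 0.14. On reads scaled to the listed total of each library the H1.2AKO libraries lay above both WT libraries for 17 of the 45 genes, against 14% of all genes, and the limma-voom median was 0.09 beside -0.06 over all genes. Among marker lists in BAT, 6 of 8 adipocyte, 5 of 5 macrophage and 4 of 4 red cell genes lay below 0, of which 4, 1 and 2 did not overlap between genotypes. Above 0 lay 7 of 11 brown adipocyte genes (median 0.16, range -1.11 to 0.37), 3 of 4 T cell, 2 of 2 B cell and 3 of 4 endothelial genes. The brown adipocyte list was mixed, with 4 genes higher and 3 lower without overlap. Of the T cell, B cell and endothelial genes, 2, 2 and 1 were higher without overlap. Among all genes tested, 22.4% were higher and 18.9% lower without overlap. The part of these marker lists in the result was not tested. Complexes II to V showed a median of 0.17 with 39 of 44 genes above 0, and the 7 mt-Nd genes 0.13 with 7 of 7 above 0.

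The proportions among the 45 genes in BAT were also compared between genotypes. When each gene was set against the median of the 45 genes in its own library, the groups of 2 libraries overlapped for 32 genes. Ndufa4l2, Ndufa12 and Ndufb8 were higher in both H1.2AKO libraries on that scale (3 genes, beside 4.28% of all genes tested), and 10 were lower (beside 33.9%), with the largest differences for Ndufa7 (-0.28) and Ndufaf2 (-0.25). In iWAT the same count was 18 higher (beside 24.1% of all genes) and 3 lower (beside 7.67%). This scale centers the 45 genes and moves all other genes by the common shift of the 45. The shares of all genes are therefore not a like background for these counts. Ndufa7, a matrix arm accessory subunit, was at 118 and 94.4 FPKM in WT against 110 and 88.7 in H1.2AKO.

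**Figure D5:**
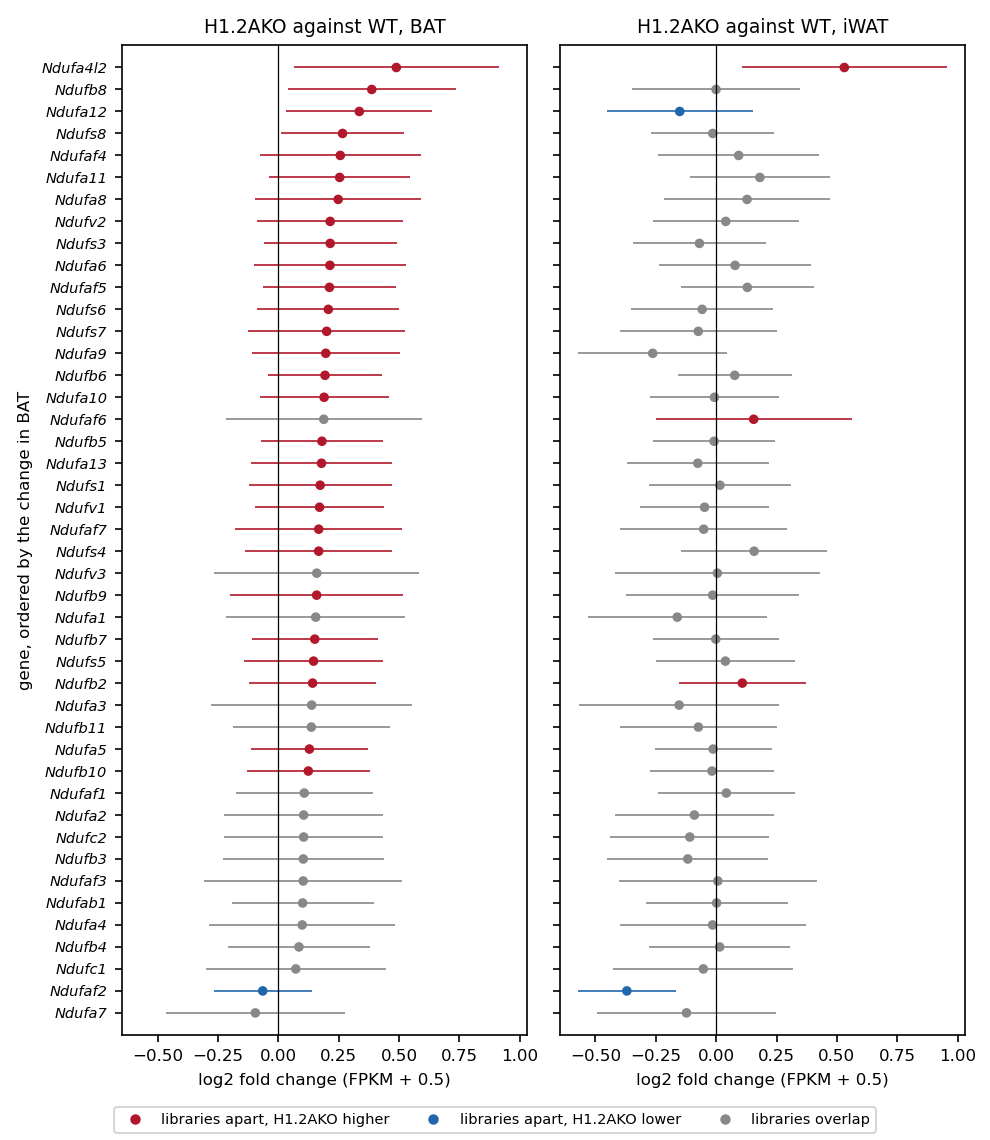
Log2 fold change of H1.2AKO against WT for 44 of the 45 Nduf genes in BAT (left) and iWAT (right), ordered by the change in BAT, with 95% confidence intervals from limma. Red or blue marks genes for which both H1.2AKO libraries lie above or below both WT libraries, which over all 45 genes were 29 and 1 in BAT and 3 and 2 in iWAT.

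In iWAT, the same question gave no common direction. None of the 45 genes was called, as 0 of 14349 genes (0%) were by limma, with 855 at an unadjusted p under 0.05 and 0 called by limma-voom. A fold change above 0 was seen for 18 of the 45 genes, against 49.2% of all genes, and the median was -0.01. Both H1.2AKO libraries lay above both WT libraries for 3 genes (Ndufa4l2, Ndufb2 and Ndufaf6), against 16.7% of all genes. They lay below both for 2 genes (Ndufaf2 and Ndufa12), against 20.5%. The mean level of the 45 genes was 5.54 and 5.29 in WT against 5.34 and 5.47 in H1.2AKO, so the H1.2AKO libraries lay between the WT ones. The count above 0 was 39 when WT replicate 1, the library low in muscle RNA, was left out and 6 when WT replicate 2 was. Leaving out replicate 1 or 2 of H1.2AKO gave 31 or 12. The mean level of the muscle genes was 1.78 and 5.26 in WT and 4.83 and 4.64 in the H1.2AKO libraries. With it as a covariate 32 of the 45 genes lay above 0, with a median of 0.05.

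The 4 smallest p in iWAT belonged to Ndufaf2, Ndufa4l2, Ndufa9 and Ndufa11. Ndufaf2 was at 13.01 and 12.0 FPKM in WT against 9.09 and 10.0 in H1.2AKO. The groups did not overlap, and the log2 fold change was -0.37 (SE 0.08, unadjusted p = 0.00378, adjusted p = 0.600, limma). Ndufa4l2 was at 5.25 and 3.49 in WT against 6.11 and 6.74 in H1.2AKO (log2 0.53, SE 0.18, adjusted p = 0.712), and the log2 fold change was 0.27 without WT replicate 2. These were the only genes of the 45 with an unadjusted p under 0.05, 1 higher beside 2.59% of all genes and 1 lower beside 3.37%. Ndufa9, an accessory subunit at the junction of the arms, was at 103 and 83.9 FPKM in WT against 70.9 and 84.2 in H1.2AKO (log2 -0.26, SE 0.13, adjusted p = 0.876). Ndufa11, in the membrane arm, was at 28.8 and 23.4 in WT against 27.3 and 32.0 in H1.2AKO (log2 0.18, SE 0.12, adjusted p = 0.959). The groups of these 2 genes overlapped. Without WT replicate 1, the library low in muscle RNA, the log2 fold change was -0.12 for Ndufa9 and 0.33 for Ndufa11, and without WT replicate 2 it was -0.41 and 0.03. Leaving out H1.2AKO replicate 1 gave -0.14 for Ndufa9 and 0.29 for Ndufa11, and leaving out H1.2AKO replicate 2 gave 0.07 for Ndufa11. Against the median of the 45 genes in the same library, Ndufaf2 was lower and Ndufa4l2 higher in both H1.2AKO libraries of iWAT as well as of BAT.

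Ndufa4l2 and Ndufb2 had non-overlapping higher levels in H1.2AKO of both tissues, and Ndufaf2 had lower levels in both. Of 12594 genes tested in both tissues, 5.34% were higher without overlap in both and 5.8% lower, so these counts of 2 and 1 of 45 were not above the background. No other gene of the 45 had non-overlapping levels in the same direction in both tissues. Ndufa4l2 had 72 to 159 reads per library, the fewest of the 45 genes in every library but 1. It overlaps Shmt2 on the other strand, a gene with a mean of 531 reads, and the sources do not say whether reads were counted by strand. Ndufb2, with a mean of 293 reads, overlaps Adck2 on the same strand (414 reads) and Braf on the other (467 reads), so its values are uncertain. Ndufaf2 differed by log2 -0.06 in BAT, where its WT levels were 19.9 and 20.3 FPKM and its H1.2AKO levels 19.5 and 18.9.

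The difference of the genotype effect between BAT and iWAT was tested as an interaction in the same fit. None of the 45 genes was called, as 0 of 14945 genes (0%) were by limma (839 at an unadjusted p under 0.05) and 0 by limma-voom. The estimate was above 0, a larger fold change in BAT, for 44 of 45 genes, against 52.9% of all genes, with a median of 0.16. By limma-voom 36 of 45 lay above 0, with a median of 0.08 beside -0.06 over all genes. The median was 0.09 after quantile normalization and 0.08 after rescaling without mitochondrially encoded genes. In the reported fit it was 0.03 without WT iWAT replicate 1, 0.30 without WT iWAT replicate 2, 0.10 without H1.2AKO iWAT replicate 1, 0.27 without WT BAT replicate 1 and 0.08 without WT BAT replicate 2. An unadjusted p under 0.05 was reached by 3 of the 45 genes, all above 0, beside 2.78% of all genes. Ndufa12 had the smallest, as it was lower in both H1.2AKO libraries of iWAT (12.1 and 12.2 FPKM against 13.5 and 13.5) and higher in both of BAT. Its interaction was 0.49 on the log2 scale (SE 0.18, unadjusted p = 0.0313, adjusted p = 0.851, limma), and 0.30 without WT BAT replicate 2. Ndufaf2 (0.31, SE 0.12) and Ndufa9 (0.46, SE 0.18) had the same adjusted p. In BAT Ndufa9 was at 337 and 355 FPKM in WT against 407 and 386 in H1.2AKO. With the muscle level as a covariate the estimate was above 0 for 23 of the 45 genes, with a median of 0.01. Without the 2 libraries low in muscle RNA it was above 0 for 29, with a median of 0.05.

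Other genes of the same process likewise passed no test between genotypes. In BAT the 2 smallest p among the listed respiratory genes and regulators belonged to Cox4i2, an oxygen-responsive subunit form of complex IV, at 1.89 and 2.60 FPKM in WT against 3.23 and 4.50 in H1.2AKO (log2 0.67, SE 0.19, adjusted p = 0.273, limma), and to Atp5g1, a subunit of the ATP synthase rotor, at 5.28 and 6.37 in WT against 1.29 and 3.62 in H1.2AKO (log2 -1.21, SE 0.36, adjusted p = 0.285). In iWAT they belonged to Cox4i2 (log2 -0.39, SE 0.19) and mt-Nd4l (log2 -0.73, SE 0.36), with adjusted p = 0.876 and 0.880. For the interaction they belonged to Cox4i2 (1.06, adjusted p = 0.773) and Ppargc1a (-0.83, adjusted p = 0.851).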

How the data were processed

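RNA of iWAT and BAT from WT and H1.2AKO mice was sequenced in 8 libraries after poly-A selection. The table deposited by the authors holds FPKM for each gene in each library, beside the gene's length and position. HISAT2 2.0.5 is listed, with mm10 and GRCm38.p6 as builds, in the submitters' processing notes, and a company did the sequencing and data analysis. How reads were counted, the FPKM tool and the annotation release were not given in the sources used here, nor was the strandedness of the counting.

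FPKM values were analysed as log2(FPKM + 0.5), so fold changes of low genes are understated, in R 4.3.3 using limma 3.58.1. A mean per tissue and genotype was fitted over 8 libraries with a trended empirical Bayes prior (residual degrees of freedom 4, prior 2.57) and Benjamini-Hochberg adjustment over all genes tested, with a threshold of 0.05. Genes tested had a mean of at least 0.5 FPKM over the 4 libraries compared, and for the interaction in BAT or in iWAT. The fit was also run on simulated data with known fold changes and independent noise in each gene. Shifts shared by many genes, as seen between replicates here, were not part of that simulation, so it does not bear on them. With 2 libraries against 2, an exact permutation test cannot go below p = 0.333, so none was run. Reads were recovered from FPKM, gene length and the smallest step of each library. All values above 0 came to whole reads within 0.01, and these were used for limma-voom.

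Genes with full values were the core subunits, Ndufa4, Ndufa4l2, the 4 smallest p per comparison, 3 for the interaction, the highest and lowest gene, and 2 genes per comparison from the pathway lists. The values of 1 gene that this rule names are not reported here, and counts and medians include it. Others (Ndufa2, Ndufa7, Ndufab1 and the regulators) were chosen after their values were seen. The 45 genes and all lists were chosen with earlier results of these data known. Replicate numbers did not pair the libraries (correlations of replicate deviations -0.129 to 0.121). Alternatives covered the pseudocount, the filter, scaling, moderation, gene set, test, replicate block, left-out libraries and a muscle covariate. The covariate was fitted with a common slope over the libraries of both tissues. A left-out library leaves its group with 1, whose spread is taken from the other groups. Promoter sequences are from RefSeq (GRCm38.p6) and transcript lengths from GENCODE vM21.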

Additional observations from a re-analysis of the deposited data

How the results depend on the processing

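With 2 pools per group, common shifts of the 45 genes between genotypes cannot be separated from differences between pools. None of the 45 genes was called between genotypes under any alternative run (18 in BAT, 19 in iWAT, 21 for the interaction). For BAT against iWAT, 43 to 45 were called in WT and 44 or 45 in H1.2AKO over 17 alternatives each. No sign changed there, and the cause of the differences below was not tested.

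The median log2 fold change of BAT against iWAT in WT and in H1.2AKO was 1.47 and 1.53 after rescaling without mitochondrially encoded genes, 1.30 and 1.38 after quantile normalization, and 1.26 and 1.33 by limma-voom. It ranged from 1.54 to 1.78 in WT and from 1.79 to 1.89 in H1.2AKO with each library left out.

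Between genotypes in BAT, 0 genes of the table were called in the reported fit, 6 with a pseudocount of 0.1, 2 with 1, 3 after quantile normalization, 6 over protein-coding genes, 31 by limma-voom, 1 with the muscle covariate, 1 without both libraries low in muscle RNA, and 0 to 18 with each library left out, the most without H1.2AKO replicate 2. In iWAT 11 were called with no filter and 1 to 21 with each library left out, the most without WT replicate 1. For the interaction 3 were called with a pseudocount of 0.1, 5 with no filter and 0 to 2 with each library left out.

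Of the 45 genes in iWAT, 32 were above 0 with the muscle covariate, 39 without both libraries low in muscle RNA, and 6 to 39 with each library left out. For the interaction 23 were above 0 with the covariate (median 0.0074), 29 without both libraries and 30 to 45 with each left out. In BAT the range was 31 to 44.

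Between genotypes, 17 of the 45 genes in BAT and 33 in iWAT changed sign under at least 1 alternative. The replicate block, with the number as a term, called 45 of 45 genes higher in BAT than in iWAT and 0 between genotypes, and it changed no call of the 45. A crossed pairing in iWAT, added after seeing the data because the deviations there correlated at -0.129, called 0 genes.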

Other observations

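Beside the mt-Nd genes and the assembly factors with other names, the symbol rule leaves out 1810043H04Rik and Gm17257, chosen after their values were seen. 1810043H04Rik, the mouse gene for the assembly factor Ndufaf8, was at 27.4 and 26.9 FPKM in WT iWAT, 25.6 and 26.6 in H1.2AKO iWAT, 39.5 and 37.4 in WT BAT, and 35.3 and 33.3 in H1.2AKO BAT. In iWAT and in BAT, both H1.2AKO values were under both WT values, as for 5.8% of the genes tested in both tissues. Gm17257, listed as a processed pseudogene, was at 48.2 and 34.3 FPKM in WT iWAT and 156 and 165 in WT BAT. It was taken as a copy of Ndufab1, and the sequences were not compared. The level of Ndufab1 is uncertain, since how reads shared with such a copy were counted is not stated.

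Overlapping genes bear on 10 of the 45 genes, each of which overlaps at least 1 other gene with a mean of at least 0.5 FPKM. Ndufs1 overlaps Eef1b2, which has 4320 reads per library on average beside 5516 for Ndufs1, and Ndufaf3 overlaps Impdh2 (502 beside 609), both on opposite strands. The overlaps of Ndufa4l2 and Ndufb2 are given with their values. The share of reads that could belong to either gene was not tested.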
